A study of Mus musculus with 2 samples.

Results

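The 10 mRNAs described here encode translation and ribosome-associated factors that do not carry a ribosomal protein name: Eef1a1, Eef1b2, Eef1d, Eef1g, Eef2, Tpt1, Pabpc1, Npm1, Gnb2l1 and Naca. They were taken by gene name from the arrays, which held 19 probes for them, 1 spot each, among 18191 coding genes. NIH3T3 is an established line of mouse embryonic fibroblasts. Cells grown in medium with 10% serum were left untreated (control) or were given 10 µM thapsigargin for 3 h, and both groups received cycloheximide shortly before lysis to hold ribosomes in place. Thapsigargin empties the calcium store of the endoplasmic reticulum (ER) and causes ER stress. Lysates were spun through 10-40% sucrose gradients, Cy3 marked the polysome RNA (P), Cy5 marked the joined free and monosome RNA (FM), and both were hybridized to 1 array per condition. Each array held RNA joined from 3 preparations, so the spread between cultures was not measured and no test between conditions was possible.

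TOP mRNAs begin with a C followed by a run of pyrimidines, the 5′ terminal oligopyrimidine tract. They encode ribosomal proteins and much of the rest of the translation machinery, and the cell moves them as a group between polysomes and free particles when growth signals through mTOR or nutrients change. The binding protein LARP1 holds them out of polysomes when mTOR is inactive. ER stress acts on translation by another route, the kinase PERK, which phosphorylates the initiation factor eIF2.

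The start sites of the members are shown because the tract defines the class. RefSeq start sites on assembly GRCm38.p6 were at hand for 6 of the 10 genes, with Gnb2l1 matched under its current symbol Rack1. Each line gives 10 bases before and 20 bases after the annotated start, 5′ to 3′ on the strand of the gene, with the longest run of pyrimidines in capitals.
Gnb2l1, chr11:48800350-48800379, plus strand: gccgCTCTTTCTTTTTCTCCacagggtcgt
Eef1a1, chr9:78481705-78481734, minus strand: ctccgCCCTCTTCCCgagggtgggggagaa
Naca, chr10:128035336-128035365, plus strand: tcgTTCTCTTaaagaggaaacccggacgcc
Eef2, chr10:81176621-81176650, plus strand: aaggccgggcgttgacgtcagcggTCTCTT
Eef1b2, chr1:63176821-63176850, plus strand: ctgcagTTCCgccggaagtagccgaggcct
Tpt1, chr14:75845246-75845275, plus strand: cgctgacgacagTTCCgggggagccgcgga

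Gnb2l1 was the 1 member of these 6 whose annotated start itself was a C followed by at least 4 pyrimidines. Its run spanned 16 bases from position -6 relative to the annotated start. Of all 27025 genes with a start in the table, 813 (3.01%) had such a start, and of 63 cytosolic ribosomal protein genes 14 (22.2%) did. A run of 5 or more pyrimidines anywhere in the window was present in 4 of the 6 members, in 50.5% of all genes and in 73% of the ribosomal protein genes. The run was 10 bases long in Eef1a1, from position -5, and 7 in Naca, from position -7 and thus wholly before the annotated start. In Eef2 it began at position 15 after the start and reached the end of the window with 6 bases. It was 8 bases long when the window was extended. In Eef1b2 and Tpt1 the longest run was 4 bases, and in the extended window 5 and 6 bases. Annotated starts can lie some bases away from the start that these cells used, and the start used was not measured.

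Each probe is a 60-base oligonucleotide. Probes of some of the members are shown so that the values below can be set against what was hybridized, with their mm9 positions as the array files state them. Some are given by their first 30 bases. The Npm1 probe and the Eef1d probe A_51_P493079 have no position here because the spans stated for them are 28 and 200 bases. Whether a probe lies in coding or untranslated sequence was not annotated here.
Pabpc1, probe A_51_P119106, chr15:36525791-36525850, minus strand, first 30 bases: atcagggaccacgaacagaaactcgtgctt
Npm1, probe A_52_P732583, chr11, minus strand, first 30 bases: gatgactgaccaggaggctattcaagatct
Gnb2l1, probe A_51_P488673, chr11:48619503-48619562, plus strand, first 30 bases: gacaacttggtgcgagtatggcaggtaact
Gnb2l1, probe A_52_P404108, chr11:48615844-48615903, plus strand: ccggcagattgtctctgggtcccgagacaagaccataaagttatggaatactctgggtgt
Eef1a1, probe A_51_P118765, chr9:78326385-78326444, minus strand, first 30 bases: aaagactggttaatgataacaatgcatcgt
Eef1a1, probe A_52_P299505, chr9:78327779-78327838, minus strand: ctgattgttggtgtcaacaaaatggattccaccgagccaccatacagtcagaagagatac
Eef1g, probe A_52_P609138, chr19:9052445-9052504, plus strand, first 30 bases: ttggcaggtggactatgagtcgtatacatg
Eef1g, probe A_51_P401471, chr19:9052873-9052932, plus strand, first 30 bases: gggcttaattattaccaaattcttagaagc
Eef1d, probe A_51_P493079, chr15, minus strand, first 30 bases: ccaaatttgaggagcatgtgcagagtgtcg
Eef1d, probe A_52_P477489, chr15:75725580-75725639, minus strand, first 30 bases: ttgggtattggtggtattgggacgatagtg
Eef1b2, probe A_51_P412595, chr1:63225413-63225472, plus strand: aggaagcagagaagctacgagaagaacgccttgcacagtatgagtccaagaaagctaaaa

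Translation efficiency is given as log2 P/FM. It compares a probe's Cy3 signal with its Cy5 signal on the log2 scale, each less its local background, so a value of 1 stands for 2 times as much signal in polysomes. A averages the log2 signals of Cy3 and Cy5 and stands for brightness. Of the 19 probes, 17 had A above 4.5 on both arrays and were used, and they covered all 10 genes. A gene with several probes was given their mean. The yardsticks of error were technical. Probes printed as 10 spots had a median SD of 0.10 for the change in log2 P/FM (n = 118 probes), and different probes of the same gene had a median SD of 0.32 in log2 P/FM in control and 0.36 for its change (n = 3978 genes).

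The cells expressed 8 of 8 fibroblast markers above the filter, and of 10 markers of other cell types the T cell gene Cd3e alone passed it, with A of 6.06 in control. The reference mRNAs of the stress response had higher log2 P/FM after thapsigargin: the change was 3.42 for Atf4, 2.58 for Ddit3 (CHOP), 2.45 for Ppp1r15a (GADD34) and 1.36 for Hspa5 (BiP). For Actb it was -1.68. The median log2 P/FM of 10276 coding genes was 0.31 in control and -0.30 in stress, with a median change of -0.69.

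In control cells most of the 10 mRNAs were far out on the side of the free and monosome fraction. Their median log2 P/FM was -2.17, 8 of 10 were below 0, as were 3921 of the 10276 genes, and 7 of 10 were at or below -1.5, against 5.5% of all genes. Pabpc1 had the lowest value of the 10276 genes. Tpt1, Eef1b2, Gnb2l1 and Eef1a1 followed, with 33, 55, 112 and 122 genes below them. Npm1 was at the middle of the distribution, with 5208 genes below it, and Eef1d was above it, with 8081. The members therefore spanned 7.58 log2 units, from -6.51 to 1.07, against a median SD of 0.32 between probes of a gene. Among the members this SD reached 0.97 (Gnb2l1), and Pabpc1 at the lower end rests on 1 probe.

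After thapsigargin, on the unnormalized scale used here, all 10 mRNAs were below 0, as were 6423 of the 10276 genes. The median of the 10 was -3.35, and 9 of 10 were at or below -1.5, against 12.9% of all genes. The order of the genes was not that of the control. Gnb2l1 at -4.43, Tpt1 at -4.81, Eef1b2 at -4.94 and Pabpc1 at -5.06 were now close together at the lower end. The change was negative for 9 members, as it was for 7151 of the 10276 genes, and positive for Pabpc1. These 9 were all at or below -0.8, against 46.4% of all genes. The median change was -1.35 over the 10 genes, which is -0.66 relative to the median of all genes.

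**Figure D1:**
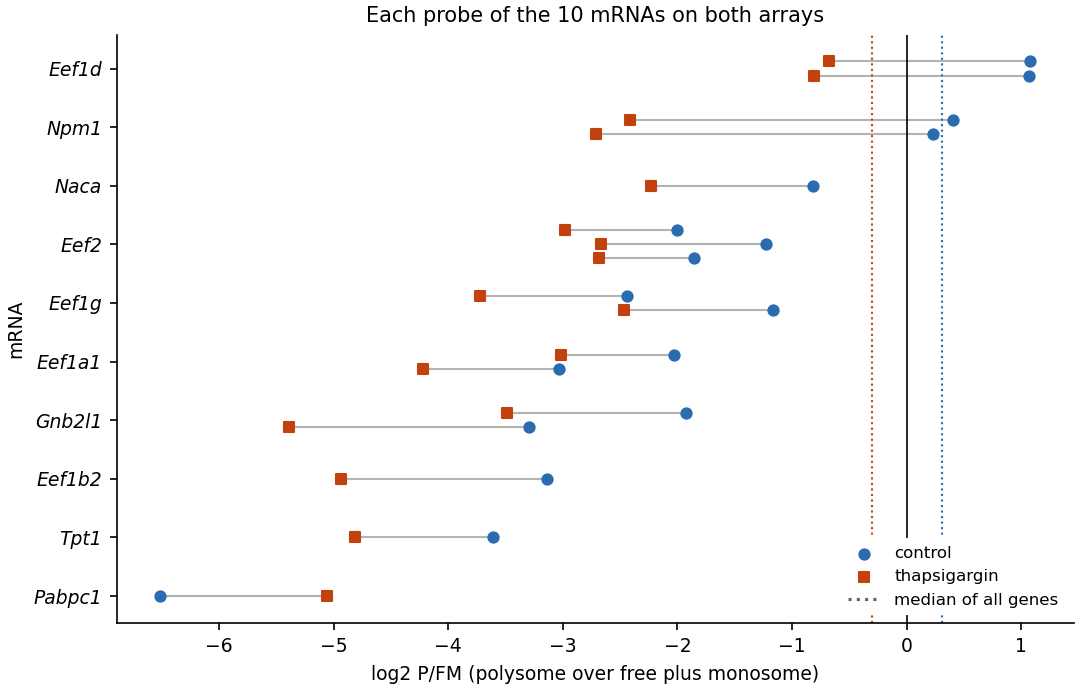
log2 P/FM of each of the 17 probes of the 10 mRNAs, in control (blue circles) and thapsigargin (orange squares), 1 array each, with a grey line joining the values of a probe and dotted lines at the medians of all genes. All points of thapsigargin lie left of 0, and Pabpc1, at -6.51 and -5.06, is the gene whose line runs to the right.

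The scale of the arrays bears on the sign of these changes. The 10 spike-in probes, which detect added RNA and no mouse mRNA, themselves had changes of -2.65 to -2.18, with a median of -2.46. When the stress array was scaled so that their median change was 0, the median change of the members became 1.11, and none of the 10 was lower by 0.8 or more. After loess within each array it was 0.28. Scaling to the spike-ins left the differences between genes as they were, so the members stayed at -0.66 relative to all genes, but after loess they were at 0.43. Per the study's methods, the input RNA for labelling kept the proportions of the fractions, and equal volumes of the labelled products were then hybridized. How the spike-ins were added to the fractions was not given in the sources used here. A dye swap was not analysed here, so a dye bias of a probe cannot be told apart from its level of log2 P/FM, while a bias that is the same on both arrays cancels in the change.

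Eef1a1 encodes eEF1A, the factor that brings aminoacyl-tRNA to the ribosome. Its probe A_51_P118765 had a P signal of 15826.5 in control and 8444 in stress, and an FM signal of 129181 and 157188. Its log2 P/FM was -3.03 and -4.22, and the second probe, A_52_P299505, was at -2.03 and -3.01. The probes differed by about 1 log2 unit on both arrays, but their changes, -1.19 and -0.98, were within the SD of 0.36 between probes of a gene. The P signal was 1.87-fold and 1.83-fold lower in stress, and the FM signal 1.22-fold and 1.08-fold higher. Both probes are also listed to another RefSeq transcript, and whether they detected it was not tested.

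The eEF1B complex recharges eEF1A with GTP, and the mRNAs of its subunits had very different positions. Eef1b2 and Eef1d encode subunits with the exchange activity, and Eef1g encodes the subunit that joins them. In control, log2 P/FM was -3.13 for Eef1b2, -1.81 ± 0.90 for Eef1g (SD, n = 2 probes) and 1.07 ± 0.011 for Eef1d (SD, n = 2 probes). Between Eef1b2 and Eef1d the difference was over 4 log2 units, well above the spread between probes.

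For Eef1d, probe A_51_P493079 had a P signal of 34097 in control and 16425 in stress, and an FM signal of 16315 and 28823. Of the signal of both channels, 67.6% was thus in polysomes in control and 36.3% in stress. The much dimmer probe A_52_P477489, with P signals of 332 and 141 and FM signals of 157 and 227, gave 67.9% and 38.4%. The bright and the dim probe thus had nearly the same log2 P/FM, at 1.06 and 1.08 in control and at -0.81 and -0.68 in stress. The third Eef1d probe, A_51_P449886, did not clear the background in either channel of either array.

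Eef1b2 had 1 probe, with a P signal of 12992 in control and 4123 in stress and an FM signal of 114129 and 126476. The 3.15-fold lower P signal and the 1.11-fold higher FM signal gave a change of -1.80. This was close to the change of -1.82 ± 0.082 of Eef1d (SD, n = 2 probes), which started from the opposite side of the scale. Eef1g had a change of -1.29 ± 0.015 (SD, n = 2 probes), although its probe A_52_P609138 (-2.44 in control and -3.72 in stress) and its probe A_51_P401471 (-1.17 and -2.46), which is annotated to a cDNA clone, differed by more than 1 log2 unit on each array.

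Eef2 encodes the GTPase that moves the ribosome along the mRNA. Its 3 probes were at -2.0, -1.86 and -1.23 in control and at -2.98, -2.68 and -2.67 in stress. The mean change was -1.08 ± 0.32 (SD, n = 3 probes). It was the least negative of the 9 negative changes and did not differ from the -1.09 of Eef1a1 beyond the spread between probes. The P signal of the brightest probe, A_52_P81562, was 4329 in control and 2377 in stress, and its FM signal 17316 and 18790. This probe is also listed to another RefSeq transcript.

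Tpt1 encodes the translationally controlled tumour protein, whose mRNA is a textbook case of a message held outside polysomes. Its P signal was 3539 in control and 1758 in stress, and its FM signal 43069 and 49466. The share of signal in polysomes was 7.59% in control and 3.43% in stress, and log2 P/FM went from -3.61 to -4.81. Tpt1 rests on 1 probe, which is also listed to another RefSeq transcript. Whether the probe detected that transcript was not tested.

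Pabpc1 encodes the cytoplasmic poly(A)-binding protein, which binds an A-rich stretch in its own 5′ leader and represses its own translation. Probe A_51_P119106 had a P signal of 3756 and an FM signal of 342862 in control, so 1.08% of the signal was in polysomes. In stress the P signal was 7236, which is 1.93-fold higher, and the FM signal 241336, which is 1.42-fold lower, and the share was 2.91%. Log2 P/FM was -6.51 and -5.06, a change of 1.45, and 623 of 10276 genes had a larger one. Pabpc1 was the 1 member that was at or below 0 in control and higher by 1 or more in stress, a class that held 9.9% of all genes.

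The change of Pabpc1 was positive here and in each of the 15 other ways of processing that gave a value for this gene, from 1.40 to 3.91, and relative to all genes it ran from 1.44 to 3.71. It rests on 1 probe and 1 spot per array. The second Pabpc1 probe, A_52_P204023, is annotated to a cDNA clone, and its P signals, 19.3 in control and 8.94 in stress, did not clear the background. Its FM signal was 329 in control and 33.3 in stress.

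Npm1 encodes nucleophosmin, a nucleolar chaperone of ribosome assembly, and had the most negative change of the 10. Probe A_51_P467410 had a P signal of 20766 in control and 8767 in stress and an FM signal of 17665 and 57225. Probe A_52_P732583 had 23199 and 8830 in P and 17497 and 47007 in FM. By both probes Npm1 was slightly on the polysome side in control, at 0.23 and 0.41, and well on the other side in stress, at -2.71 and -2.41. After loess within each array its control value was -0.46.

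The change of Npm1 was -2.88 ± 0.085 (SD, n = 2 probes), with 233 of 10276 genes below it. On this unnormalized scale the larger part of it lay in the FM channel, where the signal was 3.24-fold and 2.69-fold higher in stress. The mean change of Npm1 was 1.56 in log2 FM and -1.32 in log2 P. Over all genes the medians were 0.71 and 0.036, and over the spike-in probes 0.96 and -1.53. Which channel moved more thus depends on the scale. For the other 8 members with a negative change, the change in mean log2 FM was 0.086 (Eef1g) to 0.67 (Eef1d). Their change in log2 P was -0.84 (Eef2) to -1.66 (Eef1b2). The change of Npm1 was negative in each of the 15 other ways of processing that gave a value, from -2.94 to -0.42, the last with spike-in scaling, which turned the other 8 positive. Relative to all genes, Npm1 (-2.82 to -0.80) and Eef1d (-1.28 to -0.49) were the members below 0 here and in each of these other ways that gave a value, which do not include the 3 added after seeing the data.

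Gnb2l1 encodes RACK1, a scaffold on the small ribosomal subunit. Probe A_51_P488673 had a P signal of 28747 in control and 9702 in stress and an FM signal of 281836 and 405596, and was at -3.29 and -5.39. Probe A_52_P404108 had 20000 and 6583 in P and 75875 and 73629 in FM, and was at -1.92 and -3.48. The probes agreed on the lower P signal, 2.96-fold and 3.04-fold, and differed in FM, which was 1.44-fold higher by the first and nearly the same by the second. The mean change was -1.83 ± 0.38 (SD, n = 2 probes).

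Naca encodes the alpha subunit of the nascent polypeptide-associated complex, which meets new chains as they leave the ribosome. Its P signal was 22686 in control and 11321 in stress and its FM signal 40010 and 53030. Log2 P/FM was -0.82 and -2.23, a change of -1.41. Its partner in that complex, Btf3, started from 1.59 and had a change of -2.81.

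**Figure D2:**
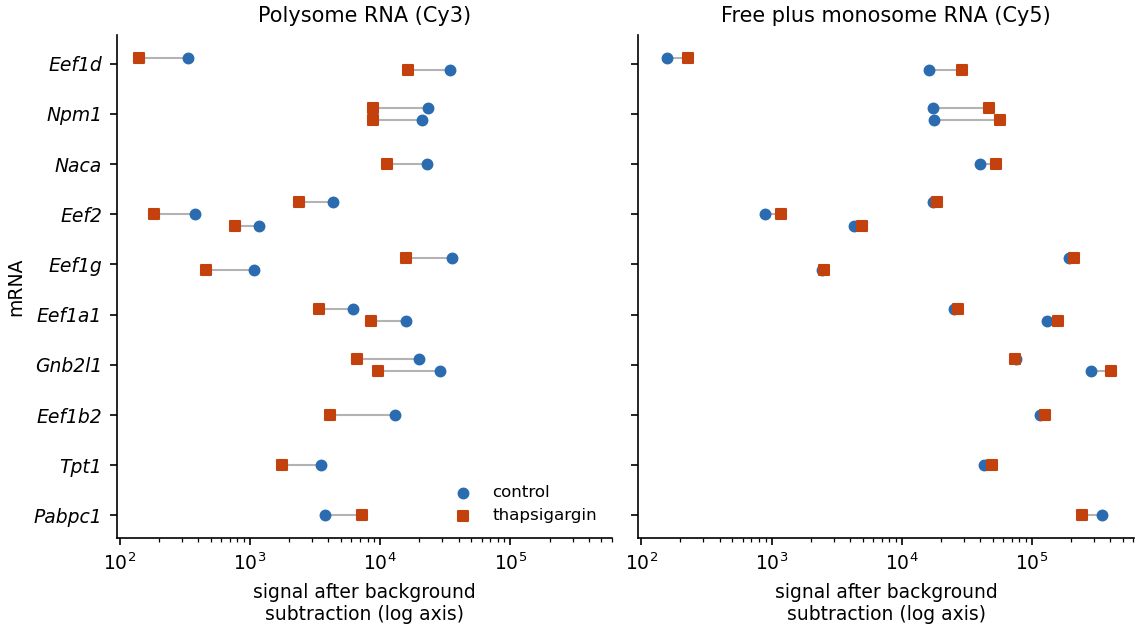
Background-subtracted signals of the 17 probes (log axis) in the P channel (left panel) and the FM channel (right panel), in control (blue circles) and thapsigargin (orange squares), 1 array each, with probes of a gene on adjacent lines. On this unnormalized scale, shifts to the left in P are longer than shifts to the right in FM for all members but Npm1 and Pabpc1. For Npm1 FM moves more, and for Pabpc1 both run the other way.

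The change in A had a median of -0.32 over the members, and over all genes it was 0.38. With the normexp background correction it was -0.42 over the members and -0.55 over all genes, so the order turned round. In the main values the change in A ran from -0.75 for Eef1b2 to 0.22 for Pabpc1, with 1.73% and 37.9% of all genes below these. For Npm1 it was 0.12, with 30.6% below. None of the 10 had A higher by 1 or more, against 11.8% of all genes.

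For 12 of the 19 probes at least 1 channel of 1 array had been taken from the low-gain scan and scaled up. This was the case for 1.06% of all probes, and no member spot was saturated. In P it applied to 7 member probes in control and 0 in stress, and in FM to 9 and 12. What this did to the changes was not tested. Bright probes as a whole had more negative changes. The 801 genes with A above 11 on both arrays had a median of 0.90 in control and -0.97 in stress, with a median change of -1.81, and 83% of them were lower by 0.8 or more. In the band of mean A from 13 to 18, which held 8 of the members, the 252 genes had a median of 0.29 in control and a median change of -1.997. Of the 10 members, Npm1 alone was below that value. The part of brightness in these changes was not tested.

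**Figure D3:**
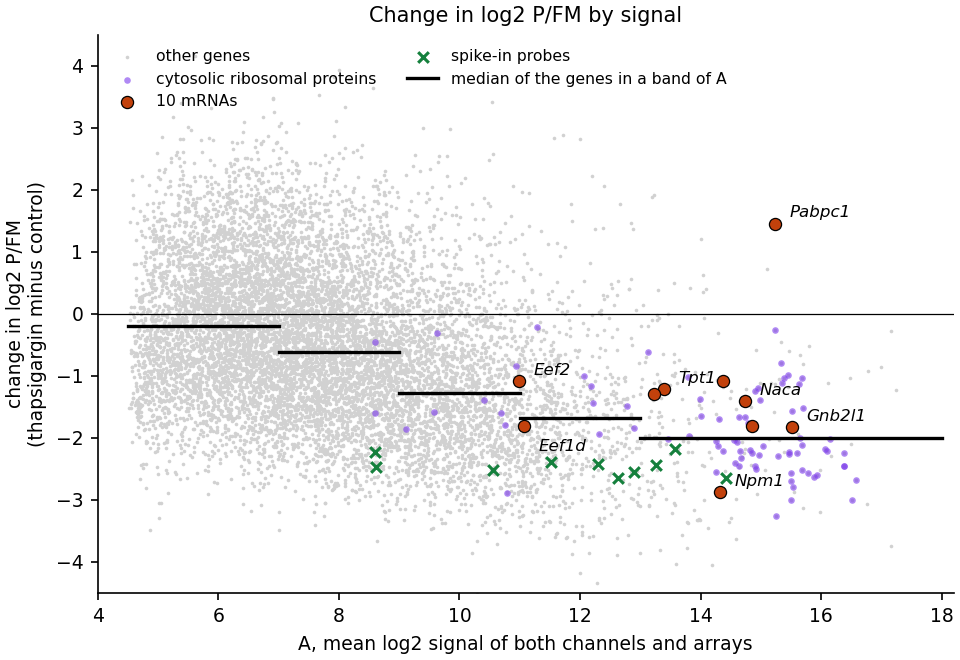
Change in log2 P/FM (thapsigargin minus control) against A averaged over both arrays, for all genes (grey), cytosolic ribosomal proteins (violet), the 10 mRNAs (orange) and the spike-in probes (green crosses), with black bars for the median of the genes in bands of A. The bars go from -0.20 in the lowest band to -1.997 in the highest, and the spike-in probes lie between -2.65 and -2.18 over their whole range of A.

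The cytosolic ribosomal proteins are the largest class of TOP mRNAs, and 78 of the 82 such genes on the array passed the filter. They were at a median of -1.97 in control, where 53 of 78 were at or below -1.5, close to the -2.17 of the members. In stress they were at -4.04, with a median change of -2.02. Of the 78, 72 were lower by 0.8 or more, against 46.4% of all genes. In control the lowest ribosomal protein mRNAs, Rps12 at -6.24 and Rplp1 at -5.67, were near Pabpc1. None of the 78 had a positive change on this scale. No test of the difference between both classes was possible with 1 array per condition.

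A second list held 8 other mRNAs that encode no ribosomal protein and are counted as TOP mRNAs. They were at a median of -0.89 in control and -1.57 in stress, with a median change of -1.33. Of the 8, 5 were lower by 0.8 or more, against 46.4% of all genes. Eif3f (-2.08 in control), Eif3h (-1.79), Eif4b (-1.58) and Eif3e (-1.13) were on the FM side in control, with Hnrnpa1 at -0.65 and Nap1l1 at -0.45. Vim at 0.23 and Btf3 at 1.59 were on the polysome side and had the most negative changes of the list, -2.07 and -2.81. Eif4b alone had a positive change, of 0.34, which is within the spread of 0.36 between probes of a gene.

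**Figure D4:**
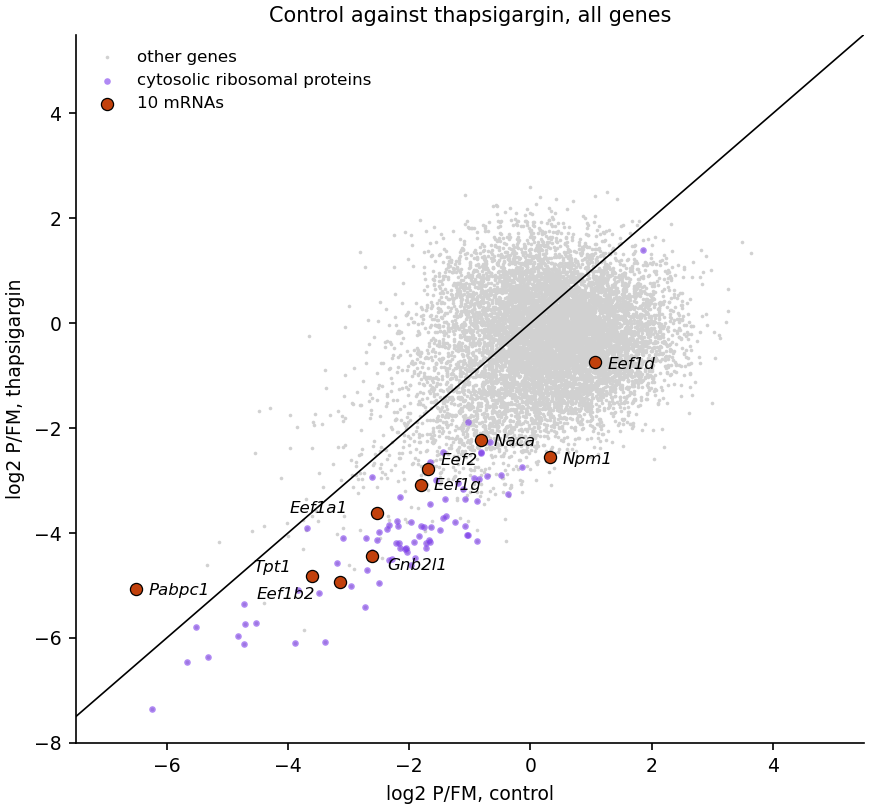
log2 P/FM in thapsigargin against control for all genes (grey), cytosolic ribosomal proteins (violet) and the 10 mRNAs (orange, named), with the line of equal values. Pabpc1, at -6.51 and -5.06, is the member above the line, Npm1 and Eef1d start to the right of 0, and the other 7 lie among the ribosomal proteins.

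Paralogs and partners of the members were mostly on the polysome side in control, with 3 of 15 below 0, against 3921 of the 10276 genes. Of 17 such genes, 15 passed the filter, with a median of 0.70 in control and -0.80 in stress. Their median change was -1.5, and 12 of 15 were lower by 0.8 or more, against 46.4% of all genes. Pabpc4, a paralog of Pabpc1, was low in control, at -2.30, and had a change of -0.50. Among the partners of poly(A)-binding protein, Paip1 was at -0.53 and Paip2 at 0.49 in control, and both were more than 1 unit lower in stress. The nuclear poly(A)-binding protein gene Pabpn1 was at 0.32 and had a change of -2.10.

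Npm3, a paralog of Npm1, was at 0.47 and had a change of -2.86, values near the 0.32 and -2.88 of Npm1 itself. The other paralog, Npm2, was at -3.44 with a change of 1.52, at a low signal (A of 5.05 in control). Ncl, which encodes the nucleolar protein nucleolin, was at 0.72 and had a change of -0.38. Eif5a, which acts beside eEF2 in elongation, was at 2.05 and had a change of -1.95. The G protein beta subunit genes Gnb1 and Gnb2, relatives of Gnb2l1 in sequence that do not act in translation, were at 1.02 and 2.14 in control and had a change of -2.12 and -2.40. The 5 mitochondrial elongation factor mRNAs had a median of 1.04 in control, with a median change of -0.69. Of these 5, Tufm (-2.35) and Tsfm (-1.79) were the 2 lower by 0.8 or more, against 46.4% of all genes.

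A list of core initiation factor mRNAs had another profile than the members in control. It leaves out Eif3e, Eif3f, Eif3h and Eif4b, which the list of other TOP mRNAs above holds. Of these, Eif3f (-2.08), Eif3h (-1.79) and Eif4b (-1.58) were at or below -1.5 in control. Of 30 listed genes on the array, 29 passed the filter, at a median of 0.81 in control and -0.45 in stress. Their median change was -1.27, and 21 of 29 were lower by 0.8 or more, against 46.4% of all genes. Within this list Eif4a2 (-2.21) and Eif5 (-2.44) were the 2 at or below -1.5 in control. Like Pabpc1 they had positive changes, of 2.18 and 1.25. The third positive change above 1 was that of Eif3a, at 1.52.

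The mRNAs of the regulators of TOP translation were spread around the middle. For 15 genes the median was 0.26 in control and the median change -0.44. Lower by 0.8 or more were 7 of 15, near the 46.4% of all genes. Larp1 had a change of -0.44 and Mtor by 0.12. The mRNA of the eIF4E-binding protein gene Eif4ebp1, a target of mTOR, had a change of -1.53, and that of the TOP-binding protein gene Cnbp by -1.24. Positive changes above 1 were seen for Tia1 (1.27), Larp4 (1.24) and Rptor (1.23).

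Of 936 genes outside the members with mean A above 11, the 10 nearest to the medians of the members over both arrays were Rpl27a, Arpc1b, Eif3f, Cox7a2l, Eif3h, Anapc5, Rpl29, Rps15, Rpl5 and Rps14, at distances of 0.044 to 0.60 log2 units. Of these, 5 were cytosolic ribosomal proteins, which made up 68 of the 936 genes searched. Likeness over 2 arrays is a description of these values alone.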

How the data were processed

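Two-colour Agilent 44K arrays of NIH3T3 cells, 1 per condition, were analysed, and the labels gave the groups. Per the file headers, spot and background intensity values came from Feature Extraction 10.7.1.1 (10.7.1 in the submitters' processing notes). The deposited files also hold processed intensity values, background-subtracted and dye-normalized, a log10 ratio of Cy5 to Cy3, and flags of 0 or 1 for each spot. The authors' further table holds log2 ratios of Cy3 to Cy5 after background correction without normalization. The processed values, the ratio and this table, in which 8 members had a value, served as alternatives, with other background, scaling, filter and probe settings.

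Following the methods of the study, each mean signal was lowered by the median of its local background, with a floor of 0.5, and no normalization was applied. Of the spots, 295 (0.680%) flagged as outliers were left out. Probes needed A above 4.5 on both arrays. A coding gene had at least 1 probe to an NM accession. Changes are thapsigargin minus control.

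Both arrays were on 1 slide and read in 1 scan. With 1 array per condition nothing was tested between conditions. The number of arrays limits the precision. Members, lists and the rule for named genes (every member, short lists, 10 nearest genes, reference mRNAs) were chosen with earlier results of these data known. The steps were tested on simulated data. R 4.3.3, limma 3.58.1 and Python 3.11.15 were used.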

Additional observations from a re-analysis of the deposited data

How the results depend on the processing

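No paired analysis was possible because each group had 1 array and the groups share fewer than 2 replicate numbers. The values were recomputed in 16 other ways, and in 3 more chosen after seeing the data. The main values were -2.17 for the median of the members in control, -1.35 for their median change, -0.66 for that change relative to all genes, 9 of 10 members lower by 0.8 or more, and -0.32 for the median change in A. Scaling to the spike-ins gave a median change of 1.11, 0 members lower and -0.025 for A. It turned the changes of Eef1a1 (1.37), Eef1b2 (0.65), Eef1d (0.64), Eef1g (1.17), Eef2 (1.37), Tpt1 (1.25), Gnb2l1 (0.63) and Naca (1.05) positive. The stress levels of Naca (0.23) and Eef1d (1.71) also became positive. Loess gave -2.92 in control, a median change of 0.28, 0.43 relative to all genes and 1 member lower. It turned the changes of Eef1a1 (0.80), Eef1b2 (0.12), Eef1g (0.35), Eef2 (0.14), Tpt1 (0.50), Gnb2l1 (0.22) and Naca (0.55) positive. The control level of Npm1 became negative (-0.46). The processed signals and the log ratio both gave -0.43 for the median change, -0.17 relative to all genes and 4 members lower. Both gave 0.010 for the change of Eef2 and 0.089 for Eef1d in stress. The processed signals gave -0.77 for A. Centring each array gave -0.74, 5 members lower and -0.80 for A. Normexp gave -1.25 relative to all genes. The brightest probe of each gene gave -2.74 in control, and 16 of 17 probes counted singly were lower. Of the added alternatives, leaving out the 5 member probes whose file entry lists another RefSeq transcript left 8 genes at -1.67 in control. Eef1a1 and Tpt1 then had no probe left. Leaving out probes scaled up from the low-gain scan left 2 genes, Eef1d and Eef2, at a median of -0.31 in control, with 2 lower. The cause of these shifts was not tested. Leaving out Pabpc1 and Npm1, the extremes of the changes, cannot move the median change. The other median results kept their direction and moved by less than the spread between probes of a gene. The other counts of members lower were 9 of 10, or 7 or 8 where 8 genes had a value. The order of members and all genes in the change in A turned round with normexp. Brightness limits the second Pabpc1 probe and the third Eef1d probe.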
